A study of Mus musculus with 24 samples.

Results

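Gene expression was compared between mouse fetal liver cells carrying miR-125b and cells carrying a control microRNA construct, miR-ctrl, at day 10 of doxycycline. The 6 libraries, 3 per arm, were taken by their labels from the 24 libraries of the series, and libraries with the same replicate number (1 to 3) were treated as pairs. Every cell, the controls included, came from mouse embryos at E12.5-13.5. These mice carry Cas9 and EGFP, driven by the CAG promoter, knocked into the Rosa26 locus (Gt(ROSA)26Sortm1.1, Fezh line, on B6J.129(Cg)). All cells also carried sgGata1, a guide RNA against Gata1, and are called Gata1s-FLCs in the labels, fetal liver cells with the short form GATA1s. Both arms received 1 µg/mL doxycycline, which switches inducible constructs on, for 10 days. The labels do not say whether the replicates were separate cultures or embryos, so the p-values measure the spread between these samples, which may be technical. The other groups of the series were the same arms at day 2, at day 13 with doxycycline continued and at day 13 after its withdrawal on day 10. They were fitted together with the day 10 libraries. They thus entered the estimate of spread behind the day 10 p-values, and they also served for tests of difference.

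GATA1 is a transcription factor that megakaryocytes and red cells need to mature, and mutations that leave only GATA1s occur with trisomy 21 in a leukemia of megakaryocyte precursors. MicroRNAs are short RNAs that pair through their seed, the bases near their 5′ end, with sites in the 3′ untranslated region (3′ UTR) of messenger RNAs and lower the output of those RNAs. miR-125b is encoded on human chromosome 21 among other places, is abundant in blood stem cells and is known for repressing members of the p53 pathway and regulators of differentiation. The series title names ARID3A, a DNA-binding protein of the ARID family, as its target.

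The mature miR-125b, which mouse makes from genes on chromosomes 9 and 16 with the same product, is shown first because its seed defines the sites searched for below. The capitals mark the seed, bases 2 to 8 (sequence from RefSeq, GRCm38.p6).
miR-125b-5p: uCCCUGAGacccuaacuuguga

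For every gene the longest 3′ UTR in the annotation was searched on the transcript strand for the 7-base match CTCAGGG and for the 8-base site CTCAGGGA, which contains it. An 8-base site was present in 718 of 11678 tested genes with a 3′ UTR (6.15%), and a 7-base match without one in 1301 (11.1%). The 8 genes shown are those that fell at day 10 with the lowest p-values among genes with an 8-base site. Arid3a, the named target, is 1 of them and holds a pair of such sites. Each line shows 30 bases of the transcript 5′ to 3′ with the site in capitals (GENCODE transcripts, GRCm38).
Zfp385a, chr15:103314787-103314816, minus strand: ggaacaccccagatCTCAGGGAaccccgcc
Dus1l, chr11:120789334-120789363, minus strand: aggaaatgcctttaCTCAGGGAatctcctc
M6pr, chr6:122317286-122317315, plus strand: gtctctcctgctggCTCAGGGAagtgtctg
Lactb, chr9:66955445-66955474, minus strand: attagttctttacaCTCAGGGAaataacag
Was, chrX:8081772-8081801, minus strand: ttcacctctcataaCTCAGGGAtgaaacag
Lin28b, chr10:45378790-45378819, minus strand: gacaaagaactttgCTCAGGGAacatacca
Taf9b, chrX:106207106-106207135, minus strand: aggactagaatgttCTCAGGGAggcagaat
Arid3a, first site, chr10:79952873-79952902, plus strand: gtggcctcctgtgcCTCAGGGAtgacagtg
Arid3a, second site, chr10:79953806-79953835, plus strand: ccatgggtaactggCTCAGGGAtatagcag

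The day 10 libraries held 15845604 to 20502888 counts, and 17158 to 17937 genes had at least 1 count. Values are CPM, counts divided by the TMM-scaled library size, in the order of replicates 1, 2 and 3. The replicate 2 libraries of both arms stood apart: on the first principal component (43.7% of the variance) they lay at 38.2 and 57.6, and the other 4 between -36.8 and -14.6. The summed CPM of 5 megakaryocyte markers was highest in these libraries within each arm (4805 with miR-125b, 5004 in control), and that of 5 erythroid markers was lowest (38.4 and 36.0). Markers of other liver cells were low in every library: 8 hepatoblast genes summed to 2.59 to 4.88 CPM, with Ttr, Trf, Fgb and Ahsg at 0 counts, and 8 macrophage genes to at most 0.865 CPM. Gata1 itself had 300, 411 and 309 CPM with miR-125b and 268, 506 and 349 in control. The arms overlapped and did not differ in edgeR's test (log2 fold change -0.10 ± 0.15 (SE), adjusted p = 0.729). Counts per gene do not tell GATA1s from full-length GATA1. For miR-125b no reads were counted: Mir125a, Mir125b-1, Mir125b-2 and Mir99ahg, a host transcript, were at 0 in the 24 libraries, which allows up to 3 counts a library. The zeros hold in both arms, so these counts do not show the level of miR-125b in either arm.

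With miR-125b at day 10, 1158 of 13419 genes differed from control (8.63%). Of these, 636 were higher (4.74%) and 522 were lower (3.89%), by edgeR's quasi-likelihood test with the replicate pairs as a block and an adjusted p under 0.05. The rises were larger than the falls: 281 genes rose by at least 1 on the log2 scale and 26 fell by as much. The median change was 0.86 among the risen and -0.41 among the fallen genes. The risen genes were also the less abundant, with a median average log2 CPM of 3.62 against 5.76. The 3 libraries of the arms did not overlap for 822 of the 1158 genes, while 19.7% of all genes did not overlap. In 1131 of the 1158 genes, 3 of 3 pairs moved in 1 direction. Both counts describe genes that were called on these same pairs, which favours such agreement, so they are no separate support. Pair 2 showed the smallest changes: the risen genes had median log2 ratios of 0.83, 0.38 and 0.99 in pairs 1 to 3 and the fallen genes -0.47, -0.20 and -0.58.

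The number of genes called depended on the pairing and on single libraries, whereas no called gene the text names by rule changed direction. Without the replicate block 117 genes passed (0.872%), all among the 1158. Leaving out both replicate 2 libraries gave 1806 genes, 1027 of them among the 1158. Dropping 1 miR-125b library (replicate 1, 2 or 3) gave 377, 2175 or 86 genes, and dropping 1 control library gave 211, 921 or 195. Of the 1158 genes, 80 (63 higher, 17 lower) were called in each of the 6 fits that left out 1 library. Among those 17 fallen genes 6 hold an 8-base site.

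**Figure D1:**
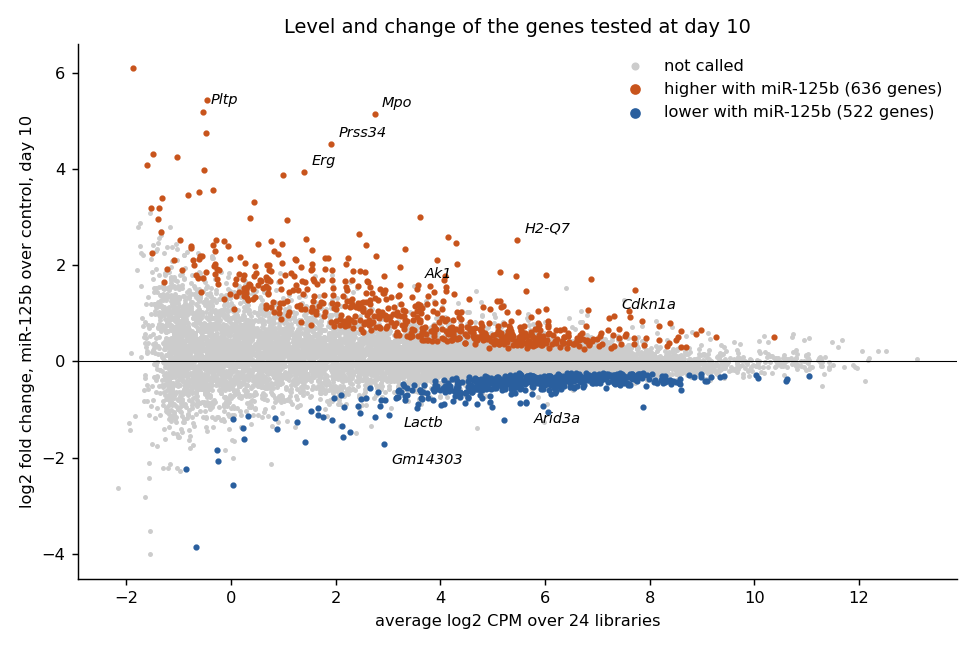
Average level of each of the 13419 tested genes (log2 CPM over 24 libraries, horizontal axis) against its log2 fold change at day 10 (vertical axis), with genes called higher in orange, genes called lower in blue and the rest in grey. The large changes lie above 0 and at low levels, while the called falls stay near the zero line and at higher levels.

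Arid3a was lower with miR-125b in every pair. It had 32.8, 32.8 and 29.8 CPM with miR-125b and 50.8, 53.6 and 71.0 in control, so the highest miR-125b library lay well below the lowest control library. The log2 fold change was -0.87 ± 0.16 (edgeR adjusted p = 0.00458). The call was lost without miR-125b replicate 3 (-0.81, adjusted p = 0.0554). In the rest of the ARID family, DNA-binding proteins of which several sit in chromatin remodelling complexes, none of the other 12 tested genes was called, a share near the 8.63% of all genes, and the family's median was 0.05.

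The other genes with an 8-base site that fell have varied roles in the cell. Zfp385a, a zinc finger protein reported to work with p53, had 284, 375 and 255 CPM with miR-125b and 412, 522 and 444 in control. Its log2 fold change of -0.60 ± 0.08 had an edgeR adjusted p of 0.000755, although the replicate 2 libraries were the highest of both arms. M6pr, the cation-dependent mannose-6-phosphate receptor that carries enzymes to lysosomes, had 255, 244 and 253 CPM against 346, 320 and 369 (-0.46 ± 0.07, adjusted p = 0.00174). Its miR-125b libraries were close together, with an SD of 5.61 CPM (n = 3). Was, the actin regulator mutated in Wiskott-Aldrich syndrome, had 144, 177 and 147 CPM against 205, 209 and 245 (-0.49 ± 0.08, adjusted p = 0.00176). Dus1l, a member of the family of transfer RNA dihydrouridine synthases, had 60.3, 55.0 and 48.3 CPM against 84.6, 71.4 and 84.9 (-0.55 ± 0.09, adjusted p = 0.00174). In all of these the arms did not overlap, and each call remained in the 6 fits without 1 library. Taf9b, a subunit of transcription initiation complexes, fell by 0.89 on the log2 scale (SE 0.18, adjusted p = 0.00572), a call lost without miR-125b replicate 3 (adjusted p = 0.0616). Without the replicate block the adjusted p was 0.0668 for Zfp385a and 0.0892 for Taf9b, and the other 6 of the 8 genes kept their calls.

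Lactb and Lin28b are miR-125b targets described in the literature, and both fell at day 10. Lactb, a mitochondrial protein that forms filaments, had 11.2, 19.2 and 13.1 CPM with miR-125b and 27.2, 29.2 and 22.9 in control, and the arms did not overlap (-0.87 ± 0.14, edgeR adjusted p = 0.00174). Lin28b, an RNA-binding protein of the fetal program that blocks let-7 maturation, had 33.2, 37.0 and 33.8 CPM against 56.7, 46.8 and 52.2 (-0.58 ± 0.10, adjusted p = 0.00309). Over the whole list of 50 literature targets 41 were tested: 10 fell and 1 rose, where 3.89% of all genes fell and 4.74% rose. The list's median log2 fold change was -0.16, and that of all genes 0.0087. The other 7 that fell beside Lactb, Lin28b and Arid3a were Tor2a, Map3k11, Abtb1, Traf6, Bap1, Rps6ka1 and Suv39h1, with changes between -0.65 and -0.23. Tor2a, an ATPase of the endoplasmic reticulum, had 15.9, 17.5 and 12.4 CPM against 23.5, 23.7 and 24.6. The gene that rose was Bcl2, an inhibitor of apoptosis, by 0.38 ± 0.12 (adjusted p = 0.0493). Among the targets that did not pass were the p53 gene Trp53 (-0.26), the apoptosis genes Bak1 (-0.24) and Bbc3 (0.52), and Arid3b (-0.23). The count of fallen targets was 4 without the replicate block, and over the fits without 1 library it lay between 2 (miR-125b replicate 3 left out) and 13 (miR-125b replicate 2 left out). Tor2a lost its call without miR-125b replicate 3 (adjusted p = 0.0748), and Bcl2 lost its call in 4 of the 6 fits (adjusted p of up to 0.377).

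Across all genes the 3′ UTR classes differed little in their medians. The median log2 fold change was -0.019 for the 718 genes with an 8-base site, -0.0087 for the 1301 with only a 7-base match and -0.00077 for the 9659 without a match. Among genes with an 8-base site 52 were lower (7.24%) and 28 higher (3.90%), against 390 (4.04%) and 475 (4.92%) of those without a match. Of 2058 genes without a match but with a long 3′ UTR (median length 3350 bases, against 2397 for genes with any match), 52 were lower (2.53%), and their median was 0.030. These are descriptions, since the genes of a class are not independent.

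**Figure D2:**
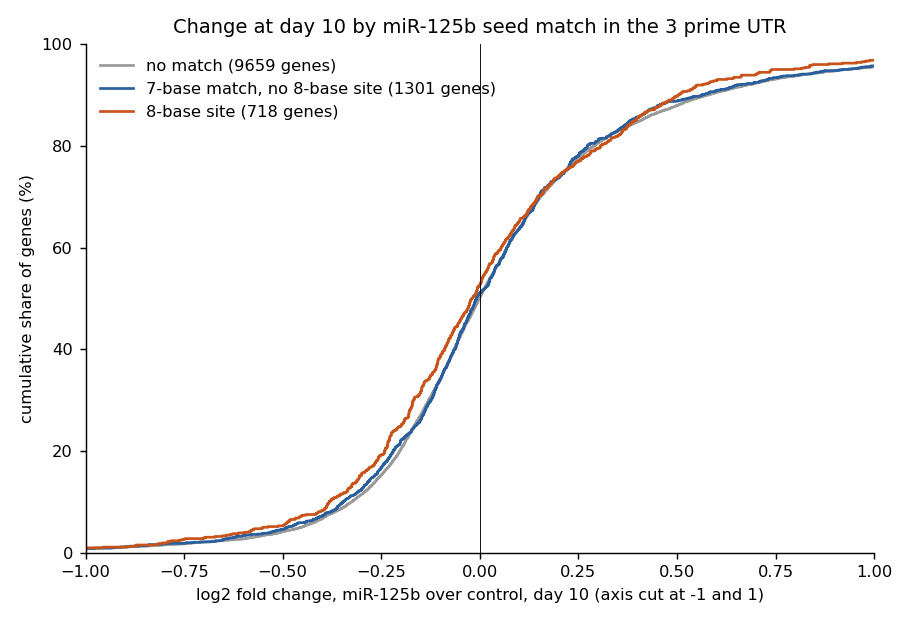
Cumulative share of genes (vertical axis, percent) by log2 fold change at day 10 (horizontal axis), for genes with an 8-base site in orange, with only a 7-base match in blue and without a match in grey. The orange curve runs above the grey one mainly on the falling side, and the medians lie within 0.02 of each other.

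Some genes of the p53 network, which halts division or triggers death after DNA damage, rose with miR-125b. Of 36 tested members of a list of 38, 12 rose, 0 fell and 24 were not called, where 4.74% of all genes rose and 3.89% fell, and the list's median was 0.41. Cdkn1a, the cell cycle inhibitor p21, had 231, 171 and 421 CPM with miR-125b and 126, 136 and 154 in control. The arms did not overlap, and miR-125b replicate 3 was the highest library (0.94 ± 0.18, edgeR adjusted p = 0.0057). Ak1, an adenylate kinase, had 16.2, 20.04 and 35.8 CPM against 6.71, 8.91 and 7.59 (1.58 ± 0.22, adjusted p = 0.000784). Zmat3, an RNA-binding protein induced by p53, had 40.4, 57.8 and 87.0 CPM against 28.4, 37.6 and 35.2 (0.84 ± 0.15, adjusted p = 0.00319). Pmaip1, which encodes the death protein NOXA, had 55.7, 38.04 and 79.8 CPM against 38.7, 25.1 and 38.3. The NOXA arms overlapped, but each pair was higher with miR-125b (0.74 ± 0.13, adjusted p = 0.00249). Pltp, a phospholipid transfer protein, was nearly silent in control, with 2 counts in all 3 libraries against 84 with miR-125b, a ratio of 44.9 (95% counting interval 12.1 to 377). The other risen members were Phlda3, Ercc5, Tnfrsf10b, Sesn2, Sesn1, Dcxr and Psrc1, with log2 fold changes from 0.43 to 1.35.

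The p53 gene itself (Trp53, -0.26), its inhibitors Mdm2 (0.36) and Mdm4 (0.39) and the death genes Bax (0.05) and Bbc3 (0.52) did not pass. The calls of Cdkn1a, Ak1, Zmat3, Pmaip1 and Pltp remained in all 6 fits without 1 library. With a miR-125b library left out (replicate 1, 2 or 3) 9, 17 or 6 members rose, and with a control library left out 8, 12 or 8. Without the replicate block 5 rose, namely Cdkn1a, Ak1, Pltp, Phlda3 and Tnfrsf10b. Zmat3 and Pmaip1 did not pass in that fit (edgeR adjusted p = 0.0626 and 0.195). Per pair the list's median log2 ratio was 0.23, 0.18 and 0.61.

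**Figure D3:**
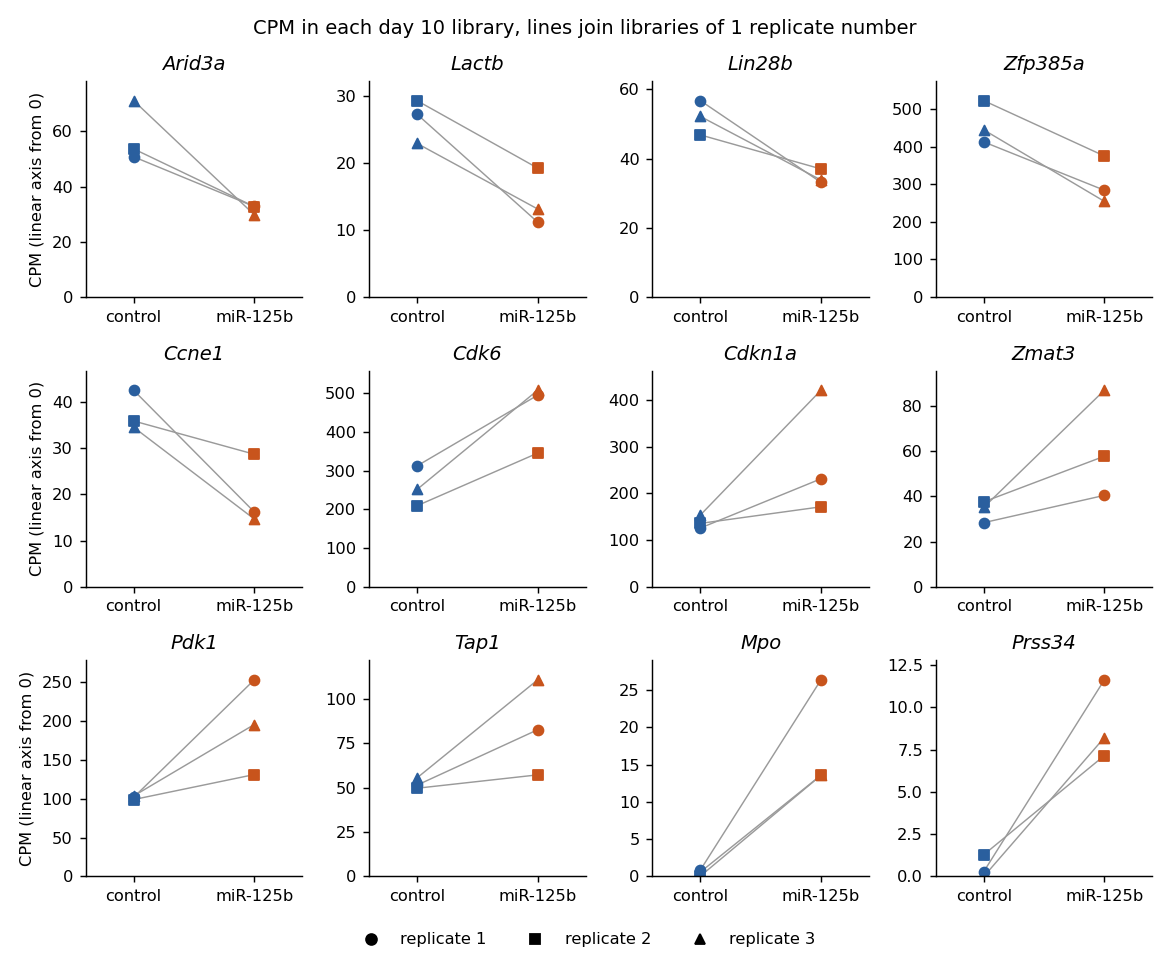
CPM of 12 genes (1 panel each, vertical axis linear from 0) in the 3 control libraries (blue) and the 3 miR-125b libraries (orange) at day 10, with a line joining the libraries of each replicate number. Arid3a, Lactb, Lin28b, Zfp385a and Ccne1 are lower and the other 7 genes higher with miR-125b in every pair, and the line of replicate 2 (squares) is often the flattest.

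Regulators of entry into DNA synthesis moved in both directions. Ccne1, the cyclin E1 that drives entry into S phase, had 16.2, 28.7 and 14.7 CPM with miR-125b and 42.5, 35.9 and 34.5 in control. All 3 control libraries lay above the miR-125b libraries (-0.96 ± 0.18, edgeR adjusted p = 0.00479), and the call was lost without miR-125b replicate 3 (-0.80, adjusted p = 0.0607). Ccne2, the related cyclin E2, fell by 0.60 (SE 0.13, adjusted p = 0.0101), a call lost without miR-125b replicate 1 or 3 or control replicate 1. Myc fell by 0.47 (SE 0.13, adjusted p = 0.0261), called in 3 of the 6 fits without 1 library. Cdk6, the kinase partner of D-type cyclins, had 495, 345 and 508 CPM against 313, 210 and 252, without overlap (0.80 ± 0.13, adjusted p = 0.00174). The inhibitor Cdkn1b, or p27, rose by 0.60 ± 0.17 (adjusted p = 0.0367), a call kept in 1 of those 6 fits. In all, 3 of the 30 regulators rose and 3 fell (4.74% and 3.89% of all genes), and the list's median was 0.06. Without miR-125b replicate 3 none of the 3 falls was called. Of 33 replication genes 3 fell and 0 rose, where 3.89% and 4.74% of all genes did. These were Tyms (thymidylate synthase, -0.38), Slbp (histone mRNA binding, -0.32) and Rrm2 (ribonucleotide reductase, -0.26). The list's median was -0.16, with 28 of 33 values below 0. All 3 of these calls were lost without miR-125b replicate 1 or 3 or without control replicate 1 or 3. Of 25 mitosis genes Anln and Cenpf rose, by 0.58 and 0.36, and 0 fell, where 4.74% of all genes rose and 3.89% fell. Both calls were lost without miR-125b replicate 3 or control replicate 1 or 3.

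Of 25 tested genes of glycolysis and of the response to low oxygen (26 in the list), 8 rose with miR-125b, 0 fell and 17 were not called, where 4.74% of all genes rose. All 25 had a log2 fold change above 0, as 51.2% of all genes did, and the list's median was 0.54. Pdk1, the kinase that holds back pyruvate oxidation, had 253, 131 and 196 CPM with miR-125b and 102, 99.1 and 104 in control. The arms did not overlap, and replicate 2 was the lowest of the miR-125b libraries (0.90 ± 0.16, edgeR adjusted p = 0.00458). Ndrg1, a gene induced by hypoxia, had 42.6, 21.7 and 58.3 CPM against 12.7, 17.98 and 18.2 (1.29 ± 0.25, adjusted p = 0.0063). The phosphofructokinase genes Pfkp and Pfkl rose by 0.74 ± 0.15 and 0.50 ± 0.13 (adjusted p = 0.00638 and 0.0259). The remaining risen members were Egln1, an oxygen sensor, Ankrd37, Tpi1, a glycolytic enzyme, and Bnip3, with changes from 0.50 to 1.65. Pgk1 (0.57), Ldha (0.30), Vegfa (0.97) and Slc2a1 (0.50) were among those that did not pass. The list's median was 1.07 in pair 1, 0.14 in pair 2 and 0.49 in pair 3. The calls rested on few libraries: leaving out a miR-125b library (replicate 1, 2 or 3) gave 3, 16 or 0 risen members, and leaving out a control library 1, 5 or 5. Pdk1 without miR-125b replicate 3 had an adjusted p of 0.0518. When the replicate block was dropped 2 passed.

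Antigen presentation genes were the list with the highest share of risen members. Of 22 genes of MHC class I and antigen loading 10 rose and 1 fell (4.74% and 3.89% of all genes), with a median of 0.31. Nlrc5, the activator of MHC class I transcription, had 14.4, 5.53 and 17.02 CPM with miR-125b and 6.27, 2.68 and 5.26 in control. The arms overlapped through replicate 2, while each pair was higher with miR-125b (1.33 ± 0.24, edgeR adjusted p = 0.00294). Tap1, a subunit of the peptide transporter, had 82.7, 57.3 and 111 CPM against 51.5, 49.7 and 55.6 (0.65 ± 0.14, adjusted p = 0.00823). Among the nonclassical genes of the Q region of chromosome 17, H2-Q7 had 84.0, 38.3 and 133 CPM against 9.72, 20.7 and 11.98 (2.53 ± 0.57, adjusted p = 0.0178). H2-Q6, H2-Q10 and H2-Q4 also rose, by 1.12 to 2.45, as did H2-Q5, which is not in the list (2.19 ± 0.53). These Q genes are near-identical copies, so the split of reads between them is uncertain. H2-K1 (0.57), B2m (0.52), Psmb9 (0.63) and Psmb8 (0.49) also rose, and Erap1, a peptidase that trims peptides, fell by 0.48. The per-pair medians of the list were 0.41, 0.02 and 0.66. When the replicate block was dropped, H2-Q7 (adjusted p = 0.0394) and, outside the list, H2-Q5 (adjusted p = 0.0471) passed. Leaving out a miR-125b library (replicate 1, 2 or 3) gave 2, 12 or 1 risen members, and leaving out a control library 2, 10 or 1. Nlrc5 was called in all of these fits. Of 28 tested interferon-stimulated genes 2 rose (Dhx58, 1.15, and Usp18, 0.64) and the median was 0.03, with a share near that over all genes. Both calls were lost without replicate 1 or 3 of either arm. The class II gene H2-Ab1, which dendritic and B cells express, also rose, with 8.82, 8.01 and 10.8 CPM against 1.26, 5.26 and 1.25 (2.02 ± 0.47, adjusted p = 0.0156), a call kept only without miR-125b replicate 2 or control replicate 2. The summed CPM of 6 dendritic cell markers, H2-Ab1 among them, ranged from 9.38 to 15.3 with miR-125b and from 2.49 to 6.55 in control. H2-Ab1 itself made up most of this sum in each miR-125b library, so the sum largely repeats that gene. Of the 6 markers 2 were tested, and H2-Ab1 was the called one. The part of dendritic cells in these results was not tested.

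Several genes of granulocytes and basophils were high with miR-125b and close to silent in control. Mpo, the myeloperoxidase of neutrophil granules (chromosome 11, 87793581 to 87804413), had 26.3, 13.5 and 13.6 CPM with miR-125b and 0.875, 0.0537 and 0.597 in control. The lowest miR-125b library was far above the highest control library (5.13 ± 0.60, edgeR adjusted p = 0.000668), and the call remained in all 6 fits without 1 library. Prss34 and Mcpt8, proteases of basophils, had 11.6, 7.15 and 8.21 CPM against 0.292, 1.29 and 0, and 9.07, 2.64 and 3.57 CPM against 0.438, 0.644 and 0. Their log2 fold changes were 4.52 ± 0.67 (adjusted p = 0.00174) and 3.87 ± 0.78 (adjusted p = 0.00692), and the Mcpt8 call was lost without miR-125b replicate 3 or control replicate 1. With no replicate block neither passed (adjusted p = 0.0753 and 0.0743). Over 34 neutrophil and monocyte genes 24 were tested, 6 rose and 0 fell, where 4.74% and 3.89% of all genes did, and the median was 1.15. The other 5 that rose were Ms4a3 (1.96), the granule protease Ctsg (3.55), the transcription factor Cebpa (1.41), the receptor Csf1r (2.13) and Cebpe, a factor of late granulocytes with 0.447, 0.558 and 0.378 CPM against 0, 0 and 0.0542. The 4 neutrophil markers, Mpo and Ctsg among them, summed to 98.2, 29.4 and 63.8 CPM with miR-125b and 23.04, 5.58 and 30.4 in control, which overlapped. The 8 macrophage markers summed to 0.511 to 0.865 CPM with miR-125b and 0.0537 to 0.271 in control, without overlap, with C1qa, Cd5l, Vsig4 and Marco at 0 counts. None of the 8 had enough counts to be kept for testing, so these sums rest on few reads. Their part in this result was not tested. Without the replicate block Mpo alone of the 6 was called. Leaving out a miR-125b library (replicate 1, 2 or 3) gave 4, 6 or 1 risen members, and leaving out a control library 2, 5 or 2. The granule genes Prtn3 (1.24) and Elane (2.25) did not pass, and the Prtn3 arms overlapped at 68.8, 14.8 and 48.2 against 21.9, 5.53 and 29.4 CPM. Of 21 tested mast cell and basophil genes Prss34 and Mcpt8 were the called ones, a share near the 8.63% of all genes. The list's median was 0.02, with 11 values above 0 and 10 below. The 6 mast cell and basophil markers summed to 976, 403 and 326 CPM with miR-125b and 1046, 442 and 229 in control, and thus overlapped. In bulk samples more cells of a type and more RNA per cell cannot be told apart.

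Megakaryocyte and platelet genes changed in both directions, with 3 of 39 tested genes higher and 4 lower and a median of 0.03. Over all genes 4.74% were higher and 3.89% lower. Selp, the adhesion protein P-selectin of platelet granules, had 1.41, 3.60 and 6.97 CPM with miR-125b and 0.583, 1.13 and 0.542 in control (2.23 ± 0.40, edgeR adjusted p = 0.00319). Serpine2, a protease inhibitor, had 271, 241 and 365 CPM against 146, 189 and 98.6 (1.05 ± 0.23, adjusted p = 0.0122). In both the arms did not overlap. Ppbp, a platelet chemokine, differed more between replicates than between arms, with 51.7, 345 and 136 CPM against 19.7, 174 and 18.9, and rose in each pair (1.71 ± 0.42, adjusted p = 0.0242). Nbeal2, which is needed for platelet alpha granules and has an 8-base site, fell by 0.46 (SE 0.10, adjusted p = 0.0128). Gp1bb and Gp9, parts of the von Willebrand factor receptor, fell by 0.75 and 0.56, and the thrombin receptor F2r by 0.34. Without miR-125b replicate 3 none of these 7 genes was called, and without the replicate block Serpine2 alone was. Of 38 tested erythroid genes 3 were called, near the 8.63% of all genes, and the median was -0.14. Uros (heme synthesis) and Car2 (carbonic anhydrase) fell by 0.64 and 0.43. Neither was called without miR-125b replicate 3, control replicate 1 or control replicate 3.

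Of 23 tested stem and progenitor genes 2 rose and 2 fell, where 4.74% of all genes rose and 3.89% fell. The list's median was -0.02. Erg, an ETS transcription factor of blood stem cells, had 13.6, 1.98 and 4.59 CPM with miR-125b and 0.924, 0.107 and 0.325 in control. It was higher in every pair without overlap (3.93 ± 0.70, edgeR adjusted p = 0.00399), and without the replicate block it did not pass (adjusted p = 0.159). Igf2bp2, an RNA-binding protein, rose by 1.65 ± 0.49 at a level under 1 CPM in every library, and Slamf1 fell by 0.94 (SE 0.29), both calls lost in 5 of the 6 fits without 1 library. Lin28b was the other that fell.

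Of 30 cholesterol and fatty acid synthesis genes 6 rose, 0 fell and 24 were not called, where 4.74% of all genes rose. The median was 0.28. Fdft1, the squalene synthase, had 234, 159 and 186 CPM with miR-125b and 123, 142 and 127 in control, without overlap (0.56 ± 0.13, edgeR adjusted p = 0.0126). Acat2, Insig1, Acly, Hmgcs1 and Msmo1 rose by 0.30 to 0.68. None of the 6 was called without miR-125b replicate 1 or 3 or without control replicate 1 or 3, and 10 of the 30 were without miR-125b replicate 2. Among stress genes of the ATF4 list (32 tested) Ddit4 (1.48) and Sesn2 (0.54) rose and Shmt2 fell (-0.28). In the cytokine list (33 tested) the feedback inhibitor Socs1 rose by 1.03 and the phosphatase Dusp6 fell by 0.88. In the TGF-beta list (25 tested) Smad5 rose by 0.37 and Skil fell by 0.48. In the BCL2 and caspase list (25 tested) Cycs, or cytochrome c, fell by 0.39 and Pmaip1 and Bcl2 rose. Of the 19 tested genes of microRNA processing and silencing, Lin28b was the called one. In these 5 lists the medians lay between -0.07 and 0.06. The called members are few in each list, where 8.63% of all genes were called. Leaving out miR-125b replicate 3, control replicate 1 or control replicate 3 left Lin28b and Pmaip1 as the called genes of these lists.

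**Figure D4:**
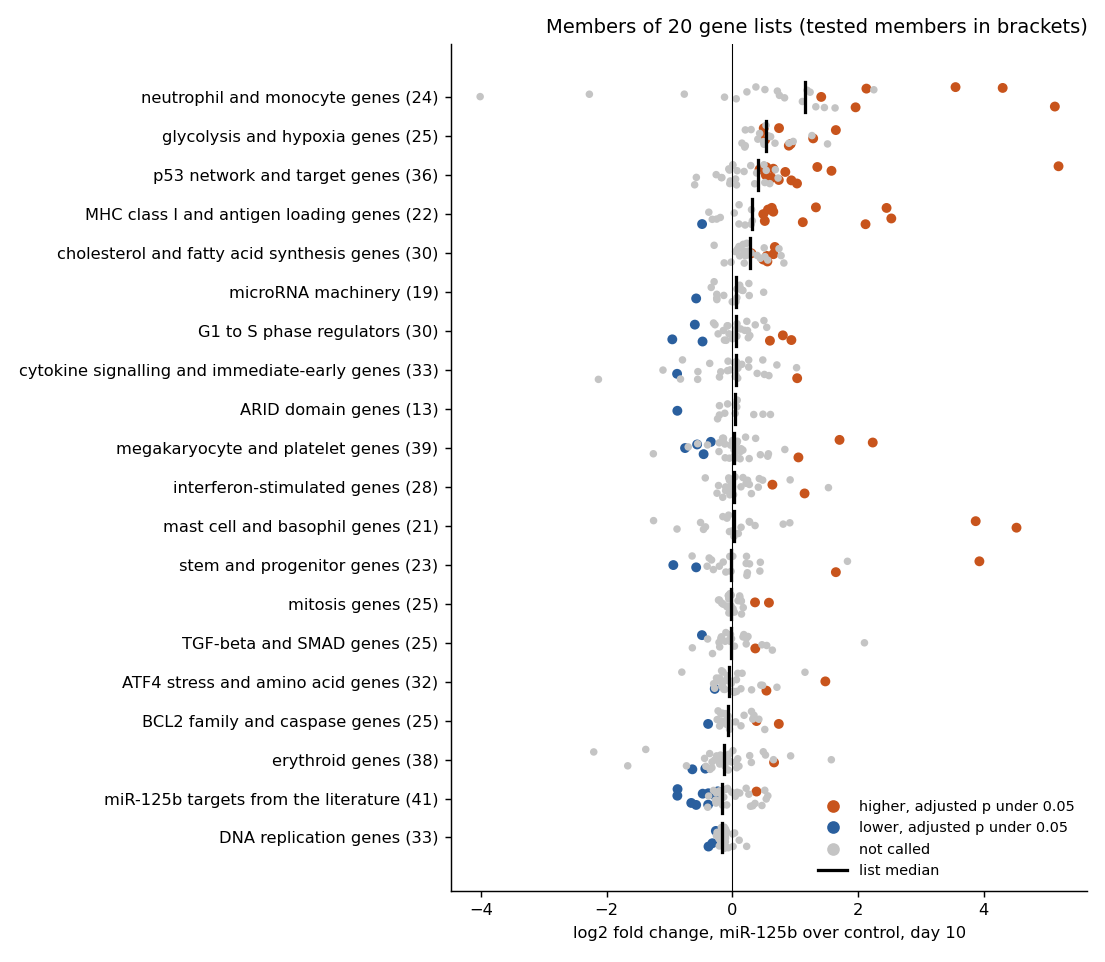
Log2 fold change at day 10 (horizontal axis) of every tested member of 20 gene lists (vertical axis, ordered by median), with risen genes in orange, fallen genes in blue, genes not called in grey and the list's median as a black bar. Neutrophil, glycolysis, p53, MHC class I and cholesterol lists have medians of 0.28 to 1.15, and the remaining lists lie between -0.16 and 0.06.

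Outside the lists, the largest rises among genes above 2 average log2 CPM without overlap of the arms included Nlgn2, Basp1, Ptk7 and Arhgef40. Arhgef40, a guanine nucleotide exchange factor, had 31.8, 29.98 and 40.3 CPM with miR-125b and 7.10, 13.6 and 4.56 in control (2.11 ± 0.27, edgeR adjusted p = 0.000668). Nlgn2, a neuroligin known from synapses, had 10.7, 13.4 and 14.5 CPM against 0.875, 5.04 and 1.57 (2.65 ± 0.47, adjusted p = 0.00407). The Arhgef40 and Nlgn2 calls remained in each fit without 1 library, and without the replicate block the adjusted p was 0.0174 for Arhgef40 and 0.106 for Nlgn2. Basp1, a membrane protein, rose by 2.58 ± 0.56, and Ptk7, a pseudokinase receptor, by 2.41 ± 0.50. These calls were lost without miR-125b replicate 3, control replicate 1 or control replicate 3.

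The gene with the lowest p-value of all was Pop5, a subunit of RNase P and RNase MRP, which process transfer and ribosomal RNA. It had 35.4, 40.1 and 32.9 CPM with miR-125b and 61.6, 62.4 and 69.3 in control, far apart (-0.84 ± 0.10, edgeR adjusted p = 0.000338), also without the replicate block (adjusted p = 0.0018). Its 3′ UTR has a 7-base match and no 8-base site. The largest falls included Cited4 (-1.21), a transcriptional coactivator, Abhd5 (-1.16), the activator of fat breakdown, Ublcp1 (-1.12), a phosphatase of the proteasome, and Ptafr (-1.07), the receptor of platelet-activating factor, which has an 8-base site. Abhd5 had 3.003, 5.53 and 2.86 CPM with miR-125b and 7.78, 7.51 and 10.3 in control, without overlap. Cited4 and Ptafr kept their calls in 1 of the 6 fits without 1 library, Abhd5 in 3 and Ublcp1 in 4. Gm14303, Rpl15-ps3, Rps27rt, Gm8430 and Gm12918 also fell, by 0.91 to 1.72. All of these but Rps27rt are annotated as processed pseudogenes, and the names of Rpl15-ps3 and Rps27rt mark copies of ribosomal protein genes. Near-identical copies share reads with their parents, so the values of all these genes are uncertain. Their calls remained in 1 (Gm8430) to 5 (Gm14303) of the 6 fits without 1 library.

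To see whether the changes were particular to day 10, each gene's miR-125b effect was tested against that of the other conditions in edgeR. The day 13 comparisons rest on the labels: Arid3a had an effect of -0.22 in the libraries labelled continued and -1.15 in those labelled withdrawal, and whether these labels hold was not tested. Against day 2 no gene differed (0 of 13419, 1609 at an unadjusted p under 0.05, 14 with DESeq2). In these conditions themselves 0 genes were called at day 2, 2 in the libraries labelled continued and 249 in those labelled withdrawal. Of these, 0, 2 and 98 were also called at day 10. The lack of a difference from day 2 thus does not show that the day 10 changes were present at day 2. Of the 1158 genes, 924 had the same direction at day 2, where 58.1% of all genes did. Against the libraries labelled day 13 with continued doxycycline, the effect at day 10 was above in 250 genes (1.86%) and below in 267 (1.99%), 517 in all (3.85%), of which 412 were called at day 10. In the libraries labelled continued, 397 of the 1158 had the direction of day 10, and 40.0% of all genes did. Against the libraries labelled withdrawal 128 genes differed (0.954%), 42 above (0.313%) and 86 below (0.641%), 91 of them called at day 10. Leaving out a miR-125b library (replicate 1, 2 or 3) turned the 517 into 42, 1579 or 1, and leaving out a control library into 3, 585 or 1. The 128 became 247 without control replicate 2, 1065 without miR-125b replicate 2 and 0 in the other 4 such fits. Without the replicate block the numbers were 3 and 0.

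The genes whose effect at day 10 was above that in the libraries labelled continued were 1.86% of all genes. Members of the p53 and glycolysis lists were among them. For the p53 list these were 8 of 36 genes, among them Cdkn1a (0.94 at day 10 and -0.33 at day 13, adjusted p of the difference 0.0182), Ak1 (1.58 and -0.17, 0.0161) and Zmat3 (0.84 and -0.13, 0.0245). For the glycolysis list they were 7 of 25, among them Pdk1 (0.90 and -0.35, 0.0161) and Ndrg1 (1.29 and -0.57, 0.0172). The medians of the p53 list were 0.18 at day 2, 0.41 at day 10, -0.07 in the libraries labelled continued and -0.01 in those labelled withdrawal. Those of the glycolysis list were 0.18, 0.54, -0.28 and -0.16. Ccne1 was lower at day 10 (-0.96) and near 0 in the libraries labelled continued (-0.01, adjusted p of the difference 0.0434). These calls belong to the 517 and share their dependence on single libraries.

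In the neutrophil list 0 of 24 genes had an effect at day 10 above that in the libraries labelled continued, which is near the 1.86% of all genes. The list's medians were 0.24 at day 2, 1.15 at day 10 and 1.19 and 1.17 in the libraries labelled continued and withdrawal, and 1 gene differed downwards, S100a9, which had at most 0.325 CPM at day 10. Mpo had log2 fold changes of 1.39, 5.13, 5.40 and 7.01 in the 4 conditions, and its effect at day 10 passed no test of difference (adjusted p of 0.303, 0.902 and 0.366). The effect on Arid3a was -0.80 at day 2, -0.87 at day 10, -0.22 in the libraries labelled continued and -1.15 in those labelled withdrawal, and these differences did not pass either (adjusted p of 0.925, 0.102 and 0.544). Most of the 8 fallen genes shown with an 8-base site were lower at day 10 than in the libraries labelled continued. Zfp385a had -0.60 at day 10 and 0.01 in those libraries (adjusted p of the difference 0.0161). Was (-0.49 and 0.14, 0.0161) and Dus1l (-0.55 and 0.16, 0.0161) were also lower. So were Lin28b (-0.58 and 0.04, 0.0277), Taf9b (-0.89 and 0.16, 0.0277) and Lactb (-0.87 and -0.17, 0.0499). M6pr (-0.46 and -0.15, 0.0942) did not pass, and neither did Arid3a.

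**Figure D5:**
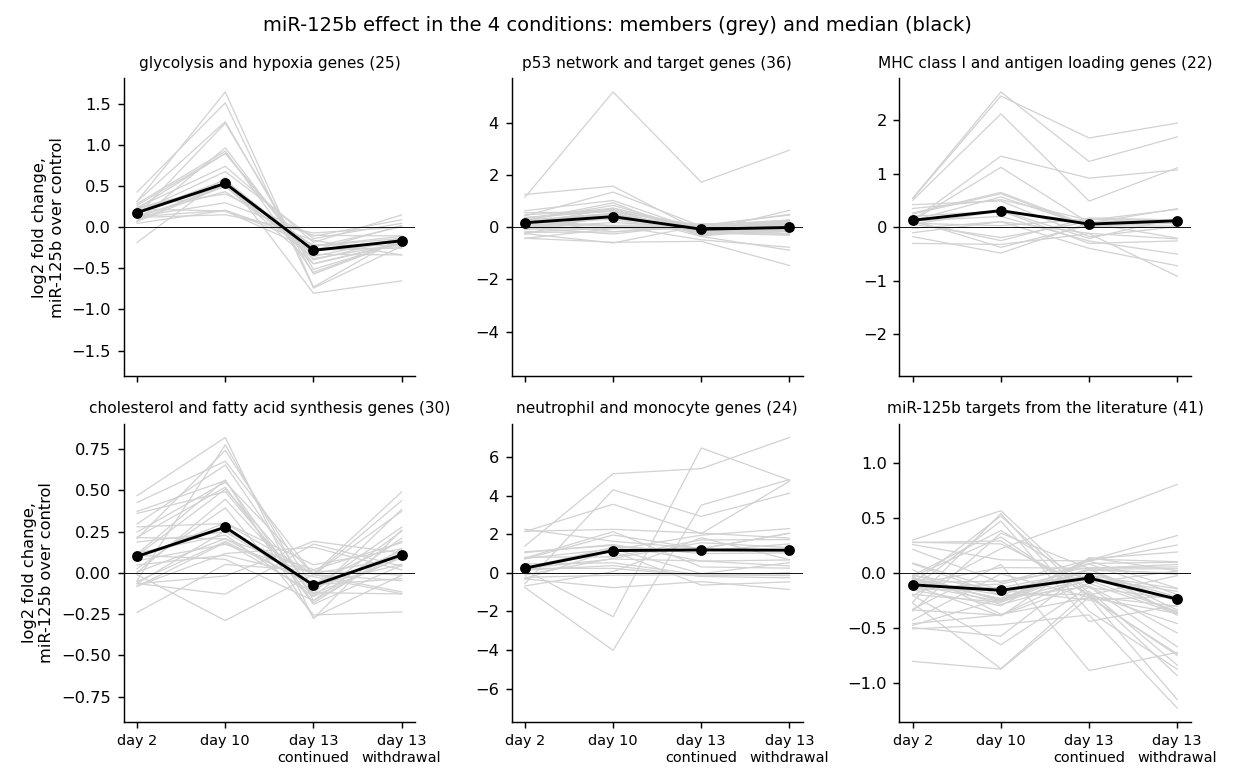
Log2 fold change of miR-125b over control (vertical axis, own scale in each panel) at day 2, day 10 and day 13 with continued or withdrawn doxycycline, as labelled, for the tested members of 6 lists (grey lines) and their median (black). The glycolysis and p53 medians are highest at day 10 (0.54 and 0.41) and below 0 in the libraries labelled continued (-0.28 and -0.07), while the neutrophil median is near 1.15 at day 10 and both day 13 conditions.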

How the data were processed

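RNA came from a column kit and went into standard Illumina libraries, per the labels' protocols. Reads were processed with fastp, HISAT2 2.0.5 and featureCounts on the mm10 build, per the submitters' processing notes, and strand use is not given in the sources used here. The deposited table gives, for 24 libraries, raw counts of reads per gene. Of 47069 gene identifiers 46574 were matched to a symbol (GENCODE M21, GRCm38), and unmatched ones held at most 0.0306% of a library's counts.

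Genes were kept by filterByExpr. The edgeR 4.0.16 quasi-likelihood test in R 4.3.3 (two-sided, TMM scaling, Benjamini-Hochberg adjustment) was fitted to all 24 libraries with 8 groups and the replicate number as a block (14 residual degrees of freedom). Standard errors (SE) come from its F statistic. In all, 7 contrasts were tested. The replicate block was used because the numbers pair the libraries by a check of the data, not by a label: the deviations from group means correlated above 0.1 in 84 of 84 pairs with the same number (0.163 to 0.781; 0.421 to 0.639 at day 10). The common dispersion was 0.0169 with the block and 0.0591 without it. Chi-square per degree of freedom between replicates of a day 10 group was 16.4 to 44.0, far above sampling noise. Intervals cover counting error only. The script was tested on simulated data.

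Genes were named by rule: Gata1, Arid3a and the miR-125b genes; up to 10 rising and 10 falling genes with average log2 CPM of at least 2 and no overlap, by largest change; up to 4 called members a list by lowest p; 8 falling genes with an 8-base site; and 5 genes for each test of difference. Other called list members are named to complete a count, and 2 genes the rule picked are not reported here. The members, the 20 gene lists and the use of the block were chosen with earlier results of these data known. Alternatives were the fit without the block, the 6 libraries alone, DESeq2 1.42.0, RLE factors, 2 filters, the newer quasi-likelihood estimate, leaving out each library and, added after seeing the data, both replicate 2 libraries.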

Additional observations from a re-analysis of the deposited data

Results flagged for a closer look

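The miR-125b effect at day 10 differed in 517 genes from that seen in libraries labelled as kept on doxycycline to day 13, and from that in the libraries labelled withdrawal in 128 genes, by edgeR's test of the difference itself. Both tests use the same 6 day 10 libraries. Both also rest on the day 13 labels, which were not tested. The 517 ranged from 1 (without miR-125b replicate 3 or control replicate 3) to 1579 (without miR-125b replicate 2), and the 128 from 0 to 1065 (without miR-125b replicate 2).

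Against continued doxycycline the genes with the lowest p-values were Gm14303, with an effect lower at day 10 by a difference of -3.70, Rpl15-ps3 (-3.01), Sf3b4 (-0.81), Pop5 (-0.82) and Trmt61a (-1.35). Their edgeR adjusted p-values were 0.0146 for Gm14303 and 0.0161 for the other 4. Sf3b4 is a splicing factor, with log2 fold changes of -0.46 at day 10 and 0.34 in the libraries labelled continued. Trmt61a, a transfer RNA methyltransferase, had -0.84 and 0.51. Pop5 had -0.84 and -0.02. Gm14303 and Rpl15-ps3 may share reads with near-identical copies.

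Against withdrawal they were Dnaja1 (a difference of -0.79), Trmt61a (-1.39), Mxd4 (1.06), Otud6b (-0.91) and Gm44044 (3.77), with edgeR adjusted p-values of 0.0273 for the first 3 and 0.0302 for the last 2. Dnaja1, a heat shock cochaperone, had log2 fold changes of -0.40 at day 10 and 0.39 in the libraries labelled withdrawal. Mxd4, a partner of MAX, had 0.15, which did not pass at day 10, and -0.92.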

How the results depend on the processing

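The main limit is 3 libraries an arm, of which pair 2 differed from the others. Without the replicate block, which pairs libraries by number, 117 genes were called at day 10, and the tests of difference gave 0 genes against day 2, 3 against continued doxycycline and 0 against withdrawal. The 6 day 10 libraries alone, with the block, gave 486. Without both replicate 2 libraries the counts were 1806, 0, 1496 and 955. DESeq2 gave 1591, 14, 967 and 658, and RLE factors 57 against withdrawal. Leaving out 1 library gave 86 to 2175 genes at day 10 and 0 to 19, 1 to 1579 and 0 to 1065 in the tests of difference. Of 82 named called genes 56 lost their call without the block, 1 to 63 without 1 library, 34 of 81 in the 6 libraries alone and 0 of 81 in DESeq2, and 0 changed direction. Leaving out 1 library moved the median of genes with an 8-base site from -0.038 to -0.0066, with a 7-base match from -0.014 to 0.0060, and without a match from -0.0097 to 0.0029 (0.030 in long 3′ UTRs). The causes were not tested.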
